A study of Homo sapiens with 6 samples.

Results

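The transcripts of 10 genes that govern the passage of a cell through G1 were compared between HuCCT1/CD90+ and HuCCT1/CD90- cells, below CD90+ and CD90- cells. They are the D-type cyclins CCND1, CCND2 and CCND3, the E-type cyclins CCNE1 and CCNE2, the cyclin-dependent kinases CDK2, CDK4 and CDK6, and the pocket proteins RB1 and RBL1. They were chosen by gene symbol from a table of 20811 genes, and all 10 were found in it. Both lines derive from HuCCT1, grown from a human bile duct carcinoma of the liver. CD90+ cells received the human THY1-CMV-GFP lentivirus, where THY1 codes for CD90, and CD90- cells the Lenti-CMV-GFP-2A-Puro-Blank Lentivirus, so that a CMV-GFP vector was carried by both. Total RNA of 3 libraries per line was read with an Ion AmpliSeq panel, which amplifies 1 short stretch of each transcript, and values are reads scaled to a common library total (RPM). Whether the libraries of a line came from separate cultures, and whether a line is 1 clone, is not stated, so that p-values measure only the spread between these libraries.

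In G1, mitogens raise D-type cyclins, which bind CDK4 or CDK6 and begin the phosphorylation of the retinoblastoma protein RB1. Phosphorylated RB1 releases E2F transcription factors, which switch on CCNE1, CCNE2 and the genes of DNA replication, and cyclin E with CDK2 then completes the phosphorylation and starts S phase. RBL1 and its relative RBL2 are pocket proteins that repress E2F target genes in resting and early G1 cells. Cyclin D1 is a known oncoprotein, and the D cyclin kinases are drug targets in several carcinomas.

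Upstream sequences are shown for 3 members, CCNE1, CDK4 and RBL1, since these 3 differed between the lines in at least 1 of the fits below and each holds several copies of a motif of G1 promoters. The set of RefSeq upstream windows used here held start sites for 6 of the 10 members, 9 in all. It held none for CCND1, CCND2, CCNE2 and CDK2, which is no statement that RefSeq lacks them. The windows are the 250 bases before the annotated start on GRCh38.p14, read 5′ to 3′ on the strand of the gene. They lie at chr19:29811741-29811990 on the plus strand for CCNE1, chr12:57752311-57752560 on the minus strand for CDK4 and chr20:37095998-37096247 on the minus strand for RBL1. Capitals mark the GC box GGGCGG in CCNE1, the E-box CACGTG in CDK4 and the E2F letters TTTCGCGC and TTTGGCGC in RBL1, on either strand.
CCNE1: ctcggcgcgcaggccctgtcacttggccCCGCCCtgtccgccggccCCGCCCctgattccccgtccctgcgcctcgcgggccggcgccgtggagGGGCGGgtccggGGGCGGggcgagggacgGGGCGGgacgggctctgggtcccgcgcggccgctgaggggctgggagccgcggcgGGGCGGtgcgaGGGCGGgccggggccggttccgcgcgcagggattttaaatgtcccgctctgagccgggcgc
CDK4: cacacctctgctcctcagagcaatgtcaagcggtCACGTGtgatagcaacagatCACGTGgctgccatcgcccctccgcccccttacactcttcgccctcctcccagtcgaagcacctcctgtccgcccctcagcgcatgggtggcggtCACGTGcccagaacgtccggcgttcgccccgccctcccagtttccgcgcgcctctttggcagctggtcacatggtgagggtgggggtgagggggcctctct
RBL1: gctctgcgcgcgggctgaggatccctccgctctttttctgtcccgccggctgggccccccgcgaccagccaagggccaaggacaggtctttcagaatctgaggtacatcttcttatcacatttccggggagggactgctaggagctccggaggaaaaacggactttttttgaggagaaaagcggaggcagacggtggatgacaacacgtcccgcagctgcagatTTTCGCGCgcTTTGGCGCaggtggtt
The window of CCNE1 held 7 GC boxes and 81.2% G and C, and 42.6% of the 35116 upstream windows in the RefSeq table held at least 1 GC box. The median window held 58.0% G and C. Start sites 1 and 2 of CCND3 held 5 and 2 GC boxes, and start site 1 of CDK6 held 3, while neither gene passed in either fit. The first window of CCND3 held 74.4% and that of CDK6 80.0% G and C. The remaining window of each gene held no GC box. CDK4 held 3 E-boxes, a motif found in 6.34% of windows. RBL1 held 2 of the E2F sequences TTTCCCGC, TTTCGCGC, TTTGCCGC and TTTGGCGC, ending 19 and 9 bases before the start, and 2.79% of windows held any of the 4. No E2F sequence of these letters was found in the other 8 windows of the members. The window of RB1 lay at chr13:48476200-48476449 and held 36.8% G and C. Whether it precedes the main start of RB1 was not tested. Other forms of the E2F motif and other start sites were not searched, so this does not show that a member lacks an E2F site. These matches describe the letters of a window and are not binding data. The 3 genes were chosen by change and motif together, so no link between change and motif can be read from them.

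The libraries held 8587634 to 10551516 reads on genes, and 3 reads, the floor used here, correspond to 0.284 to 0.349 RPM. THY1 had at most 1 read in any CD90- library and 435 to 680 reads in the CD90+ libraries, whose mean was at least 179-fold above the floor. The biliary keratin gene KRT7 had 29438 to 40053 reads per library, and of the 3 hepatocyte markers ALB and TTR had at most 1 read. The hepatocyte marker APOA1 was lower in CD90+ cells, with 39, 40 and 18 reads in CD90- libraries and 4, 2 and 0 reads in CD90+ libraries (limma adjusted p 0.026, and 0.00013 over expressed genes, the 12062 whose mean reached 1 RPM). The 6 epithelial and biliary markers summed to 8199 to 9306 RPM in CD90- libraries and 10939 to 11677 RPM in CD90+ libraries. Of the 6, 4 were higher in CD90+ (limma over all genes, which called 18.9% of genes). Only 2 were higher where the fit was blocked by replicate number, which called 2729 of all 20811 genes. Of the fibroblast markers COL1A1, COL1A2, DCN, LUM and PDGFRB, 4 of 5 were lower in CD90+, or 2 in the blocked fit, with a summed level of 40.9 to 63.6 RPM in the CD90- and 20.3 to 24.7 RPM in the CD90+ libraries. The leukocyte markers PTPRC and CD3E were at or under 3 reads in every library, and the leukocyte sum of 46.5 to 55.9 RPM in CD90- libraries against 83.9 to 100.5 RPM in CD90+ libraries was nearly all CD68. The 3 endothelial markers summed to 14.5 to 23.2 RPM in CD90- libraries and 0.643 to 1.51 RPM in CD90+ libraries, nearly all of it CDH5 in CD90- libraries. Of the other two, PECAM1 did not pass over all genes (limma adjusted p 0.14) but was lower over expressed genes (0.010), and VWF had 0 reads in CD90- and 1 to 4 reads in CD90+ libraries. The part of these differences in the results below was not tested. In bulk RNA a change in the share of cells in a cycle phase cannot be told apart from a change of RNA per cell. The paper reports, from flow cytometry, a smaller share of CD90+ than of CD90- cells in G0/G1 and a larger one in G2/M. Whether the sequenced cultures had such shares is not stated.

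Among the 10 genes, CCND1, CCNE1 and CDK2 rose and CDK4 fell in CD90+ cells (limma over all 20811 genes, threshold 0.05 on the adjusted p). This threshold was passed by 18.9% of all genes, 9.41% upward and 9.52% downward. The median log2 fold change of the 10 members was 0.22, against 0.0 over all genes and -0.0086 over expressed genes. limma borrows an estimate of the spread between genes, and the table holds 3805 genes without reads. The prior degrees of freedom were 0.449 over the whole table and 7.23 over expressed genes. Adjusted p-values of the members are therefore given for both fits. In the second, 9 members were tested, of which CCND1 and CCNE1 were higher and CCNE2, CDK4 and RBL1 were lower, against 41.7% of all 12062 genes called, 20.6% upward and 21.1% downward. The same 5 members were called by edgeR and by DESeq2 on recovered reads, where 44.4% of genes were called by edgeR, 22.2% upward and 22.2% downward, and 37.0% by DESeq2, 19.0% upward and 18.0% downward. These shares of all genes are high, and the count of members called is no result about the members as a group. At the study's thresholds of a fold change of 1.5 and an unadjusted p of at most 0.05, CCND1 and CCNE1 were higher and RBL1 was lower, where 20.1% of all genes passed, 10.1% upward and 9.98% downward.

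**Figure D1:**
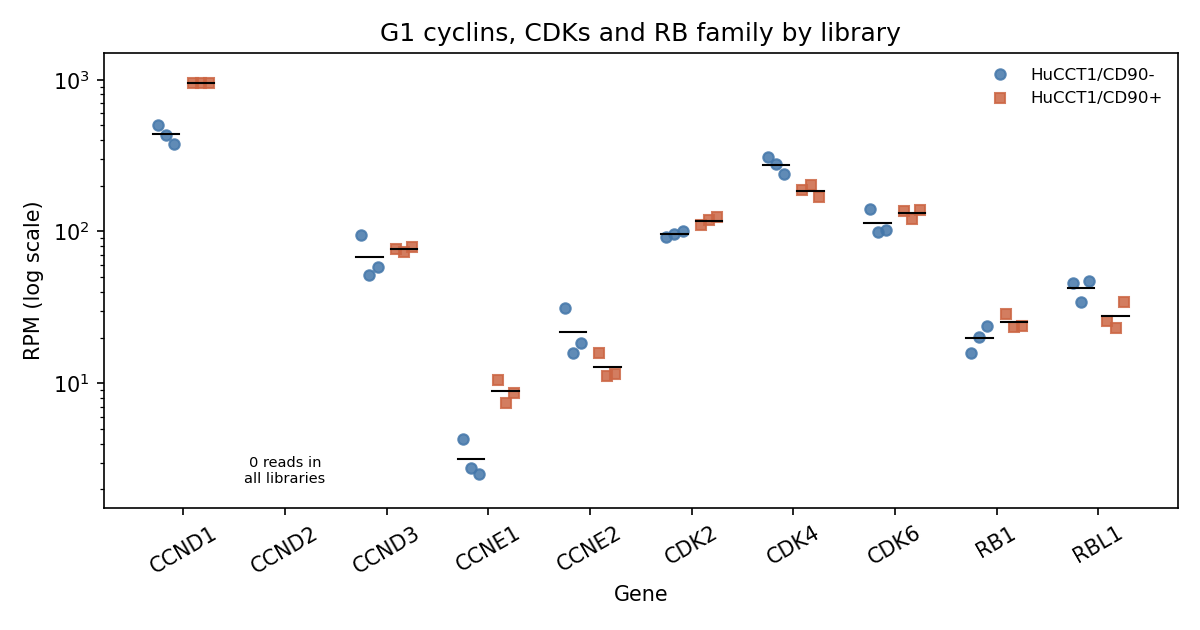
RPM on a log scale of the 10 genes in each library, with circles for the 3 CD90- and squares for the 3 CD90+ libraries and a bar at the mean of each line. The lines do not overlap for CCND1, CCNE1 and CDK2, higher in CD90+, nor for CCNE2, CDK4 and RBL1, lower in CD90+, and CCND2 had 0 reads in all libraries.

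Of the D-type cyclins, CCND1 rose in CD90+ cells, CCND3 did not pass the threshold and CCND2 had no reads. CCND1, the gene of cyclin D1 on chromosome 11, had 506.8, 429.4 and 376.3 RPM in CD90- cells against 948.8, 948.3 and 945.5 RPM in CD90+ cells. Every CD90+ library lay above every CD90- library, and the CD90+ values were almost equal. The mean rose 2.17-fold, from 437.5 ± 65.6 to 947.5 ± 1.8 RPM (SD, n = 3 each), or 1.12 ± 0.12 (SE) on the log2 scale (limma adjusted p = 0.0067 over all genes, 0.00017 over expressed genes). It stayed past the threshold with each library left out in turn, in both fits. Among the 12062 expressed genes its rise ranked 828.

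CCND2, the gene of cyclin D2, had 0 reads in all 6 libraries. At the depth of these libraries this allows up to 3 reads, 0.284 to 0.349 RPM, in each, for counting error only and for the stretch that the amplicon reads. No fold is given for it.

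CCND3, the gene of cyclin D3, had 94.9, 51.3 and 58.0 RPM in CD90- cells against 76.3, 73.5 and 79.1 RPM in CD90+ cells. The lines overlapped, since CD90- replicate 1 was the highest of the 6 libraries and the other two of its line were the lowest. The difference did not exceed the replicate spread (log2 fold change 0.21, 95% confidence interval -0.47 to 0.90, limma adjusted p = 0.69 over all genes, 0.45 over expressed genes). Without CD90- replicate 1 the log2 fold change was 0.48 and the adjusted p 0.037 with limma. It was 0.04 without CD90- replicate 2 and 0.13 without CD90- replicate 3, and did not pass in these. Within a library, the log2 ratio of CCND1 to CCND3 was 2.42, 3.07 and 2.70 in CD90- and 3.64, 3.69 and 3.58 in CD90+. Amplicons differ in efficiency, so only the change of a ratio is read here, and it came to 0.91 on the log2 scale, with p = 0.10 in a two-sided exact permutation test, the smallest that 3 against 3 libraries can give. The adjusted p over the 4 ratios examined was 0.10 for each of them (exact permutation test).

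Of the E-type cyclins, CCNE1 rose in CD90+ cells in both fits, and CCNE2 was lower among expressed genes but did not pass over all genes. CCNE1, the gene of cyclin E1 on chromosome 19, had 4.26, 2.78 and 2.52 RPM in CD90- cells against 10.5, 7.45 and 8.57 RPM in CD90+ cells, with 26 to 98 reads per library. The lines did not overlap. The mean rose 2.77-fold, from 3.19 ± 0.94 to 8.84 ± 1.54 RPM (SD, n = 3 each), or 1.24 ± 0.21 (SE) on the log2 scale (limma adjusted p = 0.023, 0.00034 over expressed genes). At this level log2(RPM + 1) understates the change, and edgeR gave 1.46. Over all genes the call was lost when any library but CD90- replicate 1 was left out (adjusted p = 0.055 to 0.083, limma), whereas over expressed genes it was kept each time.

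CCNE2, the gene of cyclin E2, had 31.5, 15.8 and 18.3 RPM in CD90- cells against 15.8, 11.1 and 11.5 RPM in CD90+ cells. The lines were parted by a narrow gap, between CD90- replicate 2 and CD90+ replicate 1, and CD90- replicate 1 stood above all others. The change was -0.69 ± 0.31 (SE) on the log2 scale (limma adjusted p = 0.23 over all genes), and over expressed genes the adjusted p was 0.038. In that fit the call was lost without CD90- replicate 1, CD90+ replicate 2 or CD90+ replicate 3 (adjusted p = 0.12, 0.11 and 0.11, limma), and without CD90- replicate 1 the change was -0.41 on the log2 scale. The log2 ratio of CCNE1 to CCNE2 lay between -2.88 and -2.51 in CD90- and between -0.58 and -0.42 in CD90+. This change of 2.23, or 4.68-fold, was the largest of the 4 ratios, and stayed between 2.16 and 2.35 with each library left out. With all libraries p was 0.10 (exact permutation test).

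**Figure D2:**
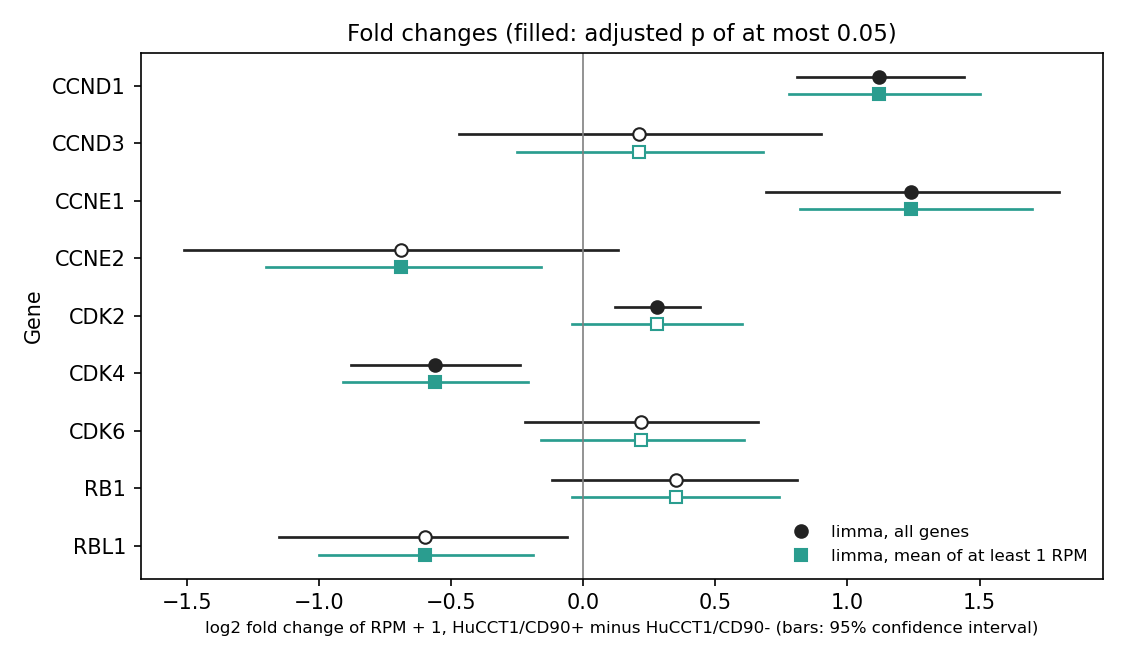
Log2 fold change of RPM + 1 with its 95% confidence interval for the 9 members with reads, from limma over all genes (circles) and over expressed genes (squares), filled where the adjusted p is at most 0.05. CCND1, CCNE1 and CDK4 are filled in both fits, CDK2 only in the first, and CCNE2 and RBL1 only in the second.

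Of the kinases, CDK4 fell and CDK2 rose over all genes, and CDK6 did not pass. CDK4, a partner of the D cyclins, had 308.1, 278.5 and 241.0 RPM in CD90- cells against 186.6, 202.1 and 169.5 RPM in CD90+ cells, and the lines did not overlap. Its mean fell from 275.9 ± 33.6 to 186.1 ± 16.3 RPM (SD, n = 3 each), so that CD90- was 1.48-fold higher (-0.56 ± 0.12 (SE) on the log2 scale, limma adjusted p = 0.041, 0.015 over expressed genes). With the replicate number as a block the adjusted p was 0.058 over all genes and 0.0083 over expressed genes (limma). Over all genes the call was lost when any library but CD90- replicate 3 was left out (adjusted p = 0.078 to 0.12, limma), and over expressed genes only without CD90+ replicate 3 (adjusted p = 0.069, limma).

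CDK6, the other kinase of the D cyclins, lies on chromosome 7 and had 141.5, 99.2 and 102.4 RPM in CD90- cells against 137.3, 121.0 and 138.5 RPM in CD90+ cells. The lines overlapped through CD90- replicate 1, the highest of the 6 libraries. The difference did not exceed the replicate spread (log2 fold change 0.22, 95% confidence interval -0.22 to 0.66, limma adjusted p = 0.49 over all genes, 0.33 over expressed genes). With 1 library left out it ranged from 0.13 to 0.39, the highest without CD90- replicate 1, and passed in neither fit. The log2 ratio of CDK4 to CDK6 went from 1.28 ± 0.19 to 0.49 ± 0.23 (SD, n = 3 each), a change of -0.79 (p = 0.10, exact permutation test), and no library of one line lay within the range of the other.

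CDK2, the kinase of cyclin E, had 92.1, 96.8 and 101.0 RPM in CD90- cells against 109.9, 118.7 and 123.9 RPM in CD90+ cells. The lines did not overlap and the libraries of each were close together, with coefficients of variation of 4.59% and 6.03%. The mean was 1.22-fold higher in CD90+ (0.28 ± 0.06 (SE) on the log2 scale, limma adjusted p = 0.042 over all genes). The call was lost over expressed genes, where the 95% confidence interval was -0.041 to 0.60 (adjusted p = 0.15, limma), with edgeR (0.10), with DESeq2 (0.085) and with quantile normalization (0.086, limma), and over all genes when any library but CD90+ replicate 1 was left out (0.079 to 0.13, limma).

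Neither pocket protein among the members passed over all genes. RB1, the retinoblastoma gene on chromosome 13, had 15.8, 20.1 and 23.8 RPM in CD90- cells against 28.6, 23.5 and 24.0 RPM in CD90+ cells, with 167 to 267 reads per library. The lines overlapped, as CD90- replicate 3 exceeded CD90+ replicate 2. The log2 fold change of 0.35 did not pass the threshold (95% confidence interval -0.12 to 0.81, adjusted p = 0.28 with limma, 0.14 over expressed genes). With 1 library left out it ranged from 0.20 to 0.48 and passed in neither fit.

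RBL1, which encodes a pocket protein that represses E2F target genes and whose upstream window with 2 E2F sequences is printed above, had 46.1, 34.3 and 47.3 RPM in CD90- cells against 25.9, 23.2 and 34.2 RPM in CD90+ cells. The lines were parted by a narrow gap between CD90- replicate 2 and CD90+ replicate 3. The change was -0.60 ± 0.21 (SE) on the log2 scale (limma adjusted p = 0.13 over all genes, 0.025 over expressed genes). In the second fit only the leaving out of CD90- replicate 2 or CD90+ replicate 3 kept the call, and the adjusted p was 0.068 to 0.092 without any 1 of the other 4 libraries (limma). The log2 ratio of RB1 to RBL1 went from -1.10 ± 0.40 to -0.12 ± 0.35 (SD, n = 3 each), a change of 0.99 (p = 0.10, exact permutation test). Of the 9 members with reads, 3 were higher and 3 lower in every CD90+ library than in any CD90- library, while the lines did not overlap for 52.6% of expressed genes, 25.7% upward and 26.9% downward.

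Each member was set beside the 50 nearest genes on its chromosome that had a mean of at least 10 RPM. The medians of these neighbours were between -0.13 and 0.20 on the log2 scale for 8 of the 9 members with reads. CDK6 was the exception, with a neighbour median of 0.62, and the 376 such genes of chromosome 7 had a median of 0.55. CDK6 itself, at 0.22, lay below its neighbours, and with their median taken off its log2 fold change was -0.39 (adjusted p = 0.22, limma). CCND1 at 0.92 and CCNE1 at 1.16 stayed past the threshold after this step (adjusted p = 0.012 and 0.031, limma), as did CDK2 at 0.40 (adjusted p = 0.019, limma), while CDK4 at -0.49 did not (adjusted p = 0.065, limma). The part of chromosomal position in these values was not tested.

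**Figure D3:**
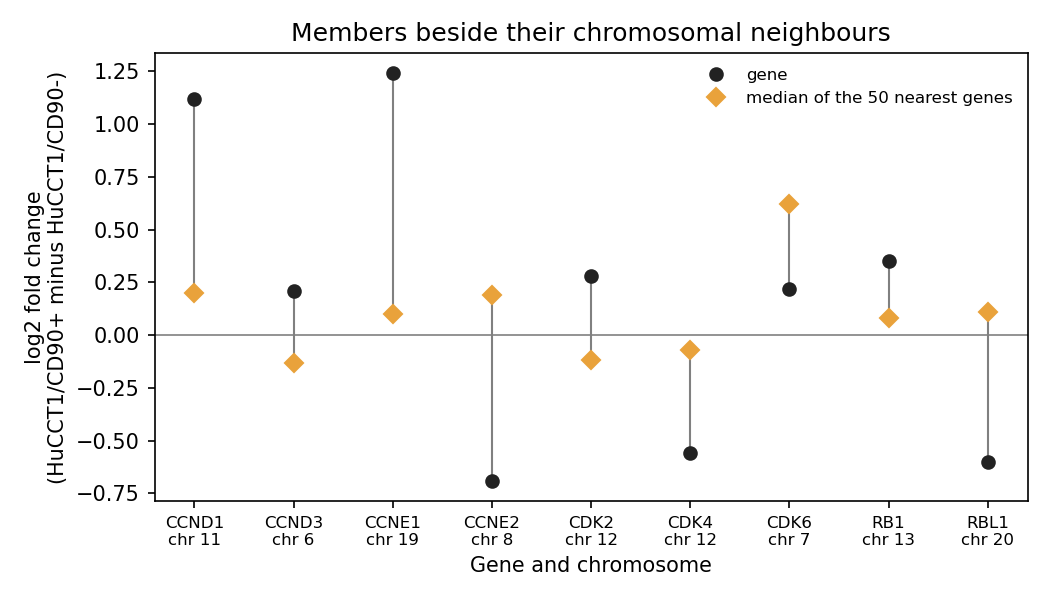
Log2 fold change of the 9 members with reads (circles) and the median of the 50 nearest genes on the same chromosome (diamonds), joined by a line, with CD90+ above 0. CCND1 and CCNE1 lie far above their neighbours, CCNE2, CDK4 and RBL1 below theirs, and CDK6 at 0.22 below a neighbour median of 0.62.

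The genes that work next to the members were read from 7 lists with 67 genes. Of these, 7 were higher and 6 lower over all genes (limma), and 15 higher and 14 lower over the 64 of them that were expressed. Over all genes the fit blocked by replicate number called 3 higher and 7 lower, as did the fit with the neighbours of each gene taken off. Of all 20811 genes the blocked fit called 1398 higher and 1331 lower, and the fit without neighbours 1641 higher and 1717 lower. The plain fits called 18.9% of all genes and 41.7% of expressed genes. With so many genes called, these counts and those of each list below are no result about the pathway as a group. Among the 7 CDK inhibitors, which bind and block cyclin-CDK complexes, 2 rose, 1 fell and 4 did not pass, with a median log2 fold change of 0.79, and over expressed genes 4 were higher and 1 was lower. CDKN1A and CDKN1B, inhibitors of the CIP/KIP class that act on CDK2 complexes, rose by 1.53 and 1.10 on the log2 scale (adjusted p = 0.010 and 0.0092, limma). CDKN2C, an INK4 inhibitor of CDK4 and CDK6, fell from 100.9 ± 26.6 to 42.5 ± 3.76 RPM (adjusted p = 0.024, limma). CDKN2B, another INK4 gene, had 93.4 ± 26.8 RPM in CD90- and 201.4 ± 22.8 RPM in CD90+ (adjusted p = 0.052 with limma, 0.0015 over expressed genes). CDKN2A was under 3 reads in every library, and CDKN2D, at 0.20 on the log2 scale, passed in neither fit (limma adjusted p 0.37 and 0.34). CDKN1C, with 12 to 38 reads per library, differed by 0.79 on the log2 scale, which did not pass over all genes (limma adjusted p 0.16) but passed over expressed genes (0.019), with edgeR (0.020) and with DESeq2 (0.049).

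RBL2, the third pocket protein, fell from 77.0 ± 2.77 to 43.6 ± 3.32 RPM (SD, n = 3 each, log2 fold change -0.81, adjusted p = 0.0032, limma), and passed with each library left out. Its neighbours on chromosome 16 had a median of -0.40, and with this taken off RBL2 was -0.42 (limma adjusted p 0.021). Of the 7 genes in the list of RBL2 and the DREAM complex, which represses cell cycle genes together with RBL1 or RBL2, 3 were lower, none was higher and 4 did not pass, with a median of -0.53, and over expressed genes 1 was higher and 4 were lower. RBBP4, a histone-binding subunit, fell from 214.4 ± 12.3 to 117.8 ± 7.78 RPM (adjusted p = 0.0032, limma), and MYBL2, which takes the place of the repressors in cycling cells, from 36.5 ± 1.73 to 23.1 ± 4.02 RPM (limma adjusted p 0.041, and 0.065 in the blocked fit).

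Of 10 E2F and DP genes, only TFDP2 passed, upward, in either fit, and the list median was 0.12. TFDP2, a dimer partner of the E2F factors, rose from 19.5 ± 1.51 to 29.5 ± 2.35 RPM (0.57 on the log2 scale, limma adjusted p 0.016, and 0.10 in the blocked fit), beside a neighbour median of 0.54 on chromosome 3. With this taken off it was 0.06 (limma adjusted p 0.81). E2F1, an activator released from RB1, had 153.6 ± 34.8 and 158.8 ± 10.0 RPM (0.07 on the log2 scale, limma adjusted p 0.98). E2F4, the factor that works with RBL1 and RBL2, had 44.0 ± 7.72 and 31.9 ± 2.93 RPM (-0.44 on the log2 scale, limma adjusted p 0.13, 0.057 over expressed genes, 0.023 when these were blocked by replicate number and 0.037 with edgeR). Its neighbours on chromosome 16 had a median of -0.32, without which E2F4 was -0.13 (limma adjusted p 0.68). TFDP1 differed by 0.30 on the log2 scale (limma adjusted p 0.30).

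**Figure D4:**
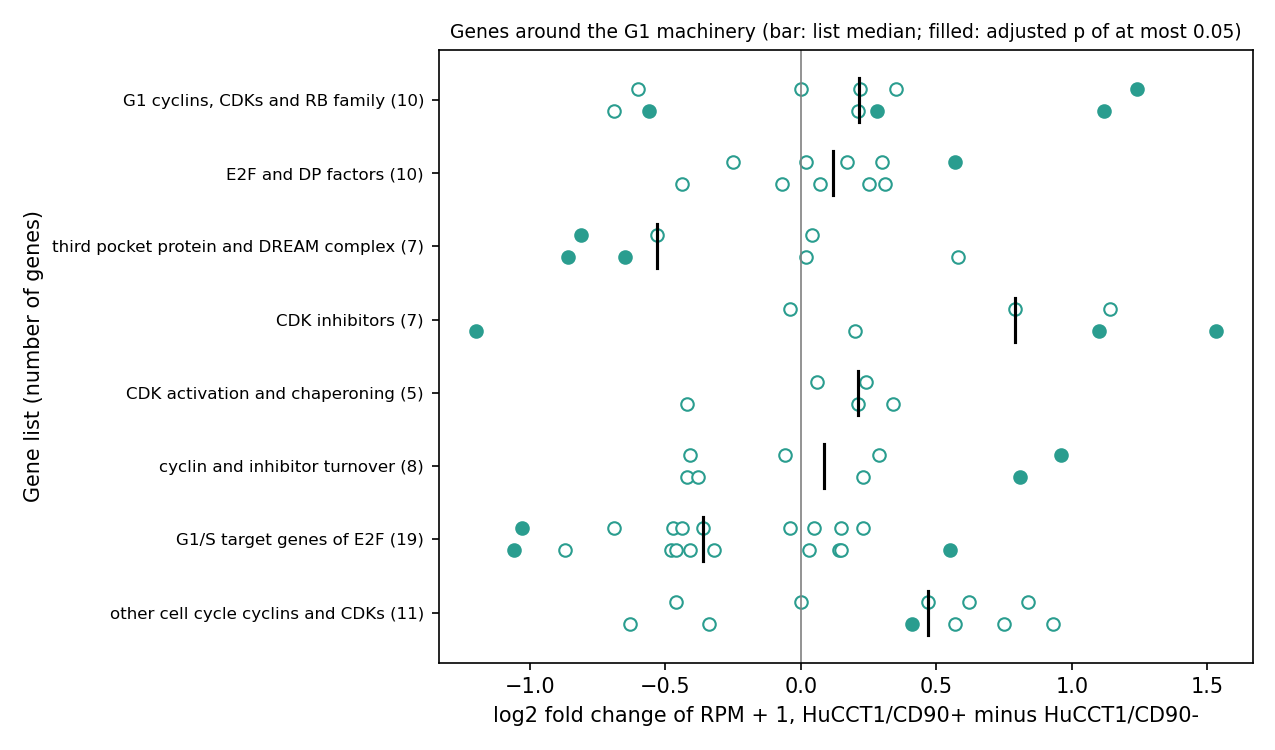
Log2 fold change of RPM + 1 of every gene in the members' list and in the 7 neighbouring lists, with 1 point per gene, filled where the adjusted p is at most 0.05 over all genes (limma), and a bar at the list median. The CDK inhibitors have a median of 0.79 and the G1/S target genes of E2F one of -0.36.

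Among 19 G1/S target genes of E2F, 1 rose, 2 fell and 16 did not pass, with a median log2 fold change of -0.36, and over expressed genes 1 was higher and 7 were lower. CCNA2, the cyclin of S phase, rose from 63.5 ± 1.87 to 94.4 ± 14.2 RPM (SD, n = 3 each, limma adjusted p 0.041, and 0.090 in the blocked fit). With its neighbours taken off it was 0.31 on the log2 scale (limma adjusted p 0.17). TYMS, which makes thymidylate, fell from 205.7 ± 17.7 to 98.4 ± 9.32 RPM (-1.06 on the log2 scale, limma adjusted p 0.0055), and MCM3, a subunit of the replicative helicase, changed by -1.03 (adjusted p = 0.011, limma). Of 8 genes that degrade cyclins or inhibitors, the ubiquitin ligase genes CUL1 and FBXW7 were higher, with log2 fold changes of 0.81 and 0.96 (adjusted p = 0.048 and 0.049, limma). Neither kept its call with any library left out over all genes, and FBXW7, whose product marks cyclin E for degradation, had an adjusted p of 0.069 with the block (limma). CUL1 lies on chromosome 7 with a neighbour median of 0.50, without which it was 0.31 (limma adjusted p 0.37), and it was also lost with quantile normalization (0.051) and with trend and robust eBayes (0.055). FBXW7 was 0.66 with its neighbours taken off (limma adjusted p 0.13), and was also lost with trend and robust eBayes (0.056) and with an offset of 5 RPM (0.052).

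None of 5 genes for CDK activation and chaperoning passed (log2 fold changes -0.42 to 0.34, limma). Over expressed genes 1 of them was called lower, as it was by edgeR. This gene was CDC37, the chaperone that loads CDK4, with 249.8 ± 22.6 and 185.8 ± 16.8 RPM (adjusted p = 0.055 over all genes and 0.045 in that fit, limma), and it was named after its values were seen. In that fit the call was lost with any 1 library left out (adjusted p = 0.062 to 0.14, limma). Of 11 other cyclins and CDKs of the cell cycle, only CDK5 passed over all genes, upward, with a log2 fold change of 0.41 (limma adjusted p 0.032, and 0.12 in the blocked fit) beside a neighbour median of 0.52 on chromosome 7, without which it was -0.10 (limma adjusted p 0.55). Over expressed genes 6 of these 11 were higher and 1 was lower. The median of this list was 0.47, and CCNA1 had 0 reads in all libraries.

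The 13 pathway genes that passed over all genes also passed over expressed genes (limma adjusted p of 0.044 for CDK5 and 0.015 or less for the others), also when blocked by replicate number (0.035 for CDK5 and 0.011 or less for the others). In the unblocked fit over expressed genes, 10 of the 13 passed with each library left out, CUL1 and FBXW7 included, while CDK5 passed with none, TFDP2 with 5 and CCNA2 with 4 of the 6 libraries left out in turn. Over all genes, 6 of the pathway genes named above, CDKN1A, CDKN1B, RBL2, RBBP4, MCM3 and TYMS, passed with each library left out in turn (limma). TFDP2 was lost without CD90- replicate 1 or CD90+ replicate 1 (adjusted p = 0.053 and 0.058, limma). MYBL2 passed only without CD90+ replicate 3, CDKN2C only without CD90- replicate 1, CCNA2 only without CD90+ replicate 1, and CDK5 only without CD90- replicate 2 or CD90- replicate 3.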

How the data were processed

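Total RNA of 3 HuCCT1/CD90+ and 3 HuCCT1/CD90- libraries was amplified by the authors with the Ion AmpliSeq Transcriptome panel and counted with the ampliSeqRNA plugin. The submitters' processing notes name hg19 and the Transcriptome Analysis Console. The authors deposited RPM values, reads scaled to a common total per library, for 20811 genes with 1 amplicon each and no filter. Values were whole multiples of 1 read within a tolerance of 0.1 reads for 100.0% of entries, so whole reads were recovered. The reads carry no molecular tags, and the floor of 3 reads covers only the error of counting.

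Differences were tested on log2(RPM + 1) with limma 3.58.1 in R 4.3.3 (lmFit and eBayes, two-sided) with p-values adjusted after Benjamini and Hochberg across the whole table. Recovered reads were tested with edgeR 4.0.16 (12070 genes) and DESeq2 1.42.0 (14399 genes with an adjusted p). The script was tested on simulated data. Ratios of 2 members were compared with exact permutation tests. CCND2 had no reads, so its ratio to CCND1 was not formed. GENCODE 29 placed 18622 genes for the choice of neighbours. RefSeq gave upstream sequences and no protein was used here.

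Same-numbered libraries of the lines deviated together from their means (r = 0.178 to 0.320 over all genes, against -0.294 to 0.0706 for other pairs). Deviations from a line mean cancel within the line, so a positive r of same-numbered pairs pulls that of other pairs down. The labels do not say whether the replicate number pairs libraries, so a fit with it as a block was run beside the unblocked one. Expressed genes are the 12062 with a mean of at least 1 RPM. All pairs of libraries of a line differed by more than counting noise. Named genes were the 10 members, THY1, marker genes, the CDK inhibitors and E2F or DP genes, and the called genes with the largest changes of each list, at most 3 each way. The members and lists were chosen with earlier results of these data known.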

Additional observations from a re-analysis of the deposited data

How the results depend on the processing

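Of the 10 members, 4 passed the threshold over all genes, and the count stayed between 3 and 5 under other offsets, filters, scalings, eBayes settings, edgeR, DESeq2, the replicate block (3), the subtraction of neighbours and the study's thresholds, with CCND1 called in each. With 1 library left out it was 1 to 3 over all genes, and 3 to 5 over expressed genes. That last setting, and the block over those genes (5), were chosen after seeing the data. Of all 20811 genes the full fit called 3939, and 2197 to 2932 were called with 1 library left out. Median centring called 5136 of them, the replicate block 2729 and the subtraction of neighbours 3358. A minimum mean of 1 RPM gave 5028 calls among 12062 genes, and one of 10 RPM gave 3715 among 8794. There were 5357 calls among 12070 genes with edgeR and 5326 among 14399 with DESeq2. The 67 neighbouring pathway genes gave 13 calls, 29 with a minimum mean of 1 or of 10 RPM, 23 with median centring, 33 with edgeR, 32 with DESeq2, 10 with the replicate block and 7 to 11 with 1 library left out. The cause of these differences was not tested. Subtracting the neighbours turned CDK6 to -0.39 and CDK5 to -0.10. The value of E2F1 ranged from -0.05 to 0.24 with 1 library left out. Of the values of single genes under all alternatives, 446 kept their direction and side of the threshold, 76 kept the direction but no longer passed, 29 passed in addition and 3 changed sign. The ratios, whose exact test cannot pass with 3 against 3 libraries, are not counted. Beside the changes given with each gene above, the replicate block changed no call of a member. CCNE1, with a mean under 10 RPM, could not be tested with the higher minimum. No scaling moved the median of expressed genes beyond -0.035. CCNE1 rests on 26 to 98 reads per library, the fewest of the members with reads.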

Other observations

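CD90- replicate 1 had the highest value of its line for 17 of 19 G1/S target genes of E2F and for 6 of the 9 members with reads, while it was the highest for 28.8% of expressed genes. CD90+ replicate 1 was the highest of its line for 13 of the 19 and for 4 of the 9, against 36.4% of genes. The summed level of the 19 genes was 2630 to 3244 RPM for the CD90- libraries, against 2142 to 2554 RPM for those of CD90+ cells.

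The 3 CD90+ values of CCND1, from 8144 to 8850 reads, had a coefficient of variation of 0.19% in RPM, where counting alone would give 1.08% at this number of reads. The cause was not tested.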
